A study of Homo sapiens with 6 samples.

Results

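CXC chemokine genes were examined in K562, an established human line from chronic myeloid leukaemia, after exposure to calactin. The genes were CXCL1, CXCL2, CXCL3, CXCL5, CXCL6, CXCL8, CXCL10, CXCL12 and CXCL16, and each probe set whose platform symbol was one of these names was taken. This gave 15 probe sets of 54675 on the array, for 9 of 19775 genes. The set was selected on the calactin minus untreated signal differences of these same arrays, so the differences of its genes are given as a description without a test.

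Calactin is a cardenolide, a plant steroid of the kind that inhibits the sodium pump. Of 6 arrays, 3 came from K562 cells exposed to calactin, given in the labels as 0.15 mM, and 3 from K562 cells without an agent, all harvested at 12 h. Both groups grew in serum-containing RPMI medium, and total RNA was converted to biotin-labelled cRNA. The labels call the samples biological replicates, without saying whether each was a separate culture, so the spread between arrays may be partly technical.

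CXC chemokines are small secreted proteins named for a cysteine-X-cysteine motif, and they steer leukocytes through receptors that couple to G proteins. Those with a glutamate-leucine-arginine motif before the cysteines, CXCL1, CXCL2, CXCL3, CXCL5, CXCL6 and CXCL8, act on CXCR2, and CXCL6 and CXCL8 also on CXCR1, and they attract neutrophils. CXCL10 is an interferon-induced ligand of CXCR3, CXCL12 is the ligand of CXCR4 that keeps blood stem cells in the marrow, and CXCL16 is a membrane-bound ligand of CXCR6 that proteases such as ADAM10 release. NF-kB and AP-1 factors switch on the neutrophil-attracting genes, and AU-rich elements make many of their messages short-lived.

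The start regions of these genes are shown because they set the genes with a large difference, CXCL8, CXCL2 and CXCL3, beside close relatives that were dim in both groups. RefSeq windows of build GRCh38.p14 were matched for 8 of 9 genes, all but CXCL16. Each line gives 150 bases, 5′ to 3′ on the strand of the gene, which end just before the annotated start. For CXCL10 the window runs from base 230 to base 81 before the start. Capitals mark GGAATTTCC on either strand, a core of NF-kB sites, as well as TGANTCA, an AP-1 site, and the interferon element, written GAAA, any pair of bases and GAAA. No marked stretches overlap.
CXCL8: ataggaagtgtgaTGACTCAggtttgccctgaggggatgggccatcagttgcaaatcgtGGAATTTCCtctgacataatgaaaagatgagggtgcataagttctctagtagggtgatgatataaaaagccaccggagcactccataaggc
CXCL2: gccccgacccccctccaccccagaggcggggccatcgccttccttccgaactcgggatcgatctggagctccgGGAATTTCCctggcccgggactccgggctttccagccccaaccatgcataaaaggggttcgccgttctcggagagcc
CXCL3: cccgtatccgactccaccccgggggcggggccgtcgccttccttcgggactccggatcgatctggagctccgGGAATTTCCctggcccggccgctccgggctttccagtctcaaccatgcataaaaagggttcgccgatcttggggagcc
CXCL1: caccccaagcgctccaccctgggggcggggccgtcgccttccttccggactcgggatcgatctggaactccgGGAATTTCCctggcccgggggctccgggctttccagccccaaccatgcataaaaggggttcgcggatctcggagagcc
CXCL5: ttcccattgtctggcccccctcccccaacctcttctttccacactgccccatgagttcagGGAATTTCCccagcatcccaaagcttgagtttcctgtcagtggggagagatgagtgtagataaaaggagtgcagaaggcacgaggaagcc
CXCL6: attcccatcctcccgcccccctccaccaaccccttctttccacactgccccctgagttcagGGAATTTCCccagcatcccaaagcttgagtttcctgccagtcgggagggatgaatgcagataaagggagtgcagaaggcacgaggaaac
CXCL10: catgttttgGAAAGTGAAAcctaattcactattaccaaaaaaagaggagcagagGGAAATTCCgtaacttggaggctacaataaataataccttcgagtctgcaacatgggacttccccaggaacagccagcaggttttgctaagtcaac
On the plus strand of chromosome 4, these stretches are chr4:73740419-73740568 for CXCL8, chr4:73869243-73869392 for CXCL1 and chr4:73836528-73836677 for CXCL6. On the minus strand they are chr4:74099196-74099345 for CXCL2, chr4:74038690-74038839 for CXCL3, chr4:73998678-73998827 for CXCL5 and chr4:76023578-76023727 for CXCL10.

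All 6 neutrophil-attracting genes held GGAATTTCC, the bright and the dim ones. Over the 250 bases before the start and both strands, these letters occurred in 7 of 8 windows, CXCL12 being the exception. They occurred in 0.413% of all 35116 RefSeq windows of that length. The motifs here and below were chosen after the windows were read, and several windows are near copies of each other. Nothing is therefore read from these shares. The first base of the match lay 91 bases before the start in CXCL8, 77 in CXCL2, 78 in CXCL3, 78 in CXCL1, 90 in CXCL5 and 89 in CXCL6. In CXCL10 the match was on the other strand, 176 bases before the start, nearer the start than the interferon element at 221, which 3.02% of all windows held.

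Among the 8 windows, TGANTCA was found in that of CXCL8 alone, 137 bases before its start, and it was present in 6.57% of all windows. GCGNGGGCG, an EGR site, was found in 0 of 8 windows and in 8.41% of all windows. GGGCGG, an SP1 box, was found in 4 of 8 windows, those of CXCL1, CXCL3, CXCL6 and CXCL12, and in 42.6% of all windows. TTGCNNAA, a form of C/EBP site, was found in CXCL2 alone, and in 9.05% of all windows. The stretch ttgcaaat of CXCL8 differs from these letters in its last base and was not counted. A window without TTGCNNAA may thus still hold a C/EBP site of another form. In a global alignment of the 250 bases, 84.0% of the bases of CXCL1 were the same in CXCL3 and 75.6% in CXCL2, and 85.6% of those of CXCL5 were the same in CXCL6. CXCL8 shared at most 53.6% with any other window, that of CXCL10. These matches are letters in a window and not measured binding.

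The arrays were alike in overall signal. Array medians ran from 31.2 to 32.1 intensity units with calactin and from 33.1 to 34.4 without it, so the calactin arrays lay slightly lower. Correlations of log2 signals were 0.989 to 0.992 within groups and 0.974 to 0.979 between groups. The poly-A control spikes, RNAs added before labelling, split the arrays by replicate number. Their mean log2 signal was 6.30 with calactin and 6.78 without it in replicate 3. It was 9.80 with calactin and 10.4 without it in replicate 1, and 10.2 and 10.9 in replicate 2. In each replicate number the calactin array thus had the lower poly-A spike signal. All 10 measured K562 markers lay above the median signal of all genes, 73.4 units. Of the neutrophil markers, 0 of 6 did, and their summed signal ran from 130.6 to 143.4 with calactin and from 129.2 to 172.9 without it. Of the monocyte markers 2 of 6 did, LYZ and CSF1R, and 0 of 6 passed the limma test. Their summed signal ran from 734.5 to 884.3 with calactin and from 921.3 to 981.7 without it, and LYZ, the brightest, was lower in every calactin array. The part of these markers in the differences below was not tested.

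**Figure D1:**
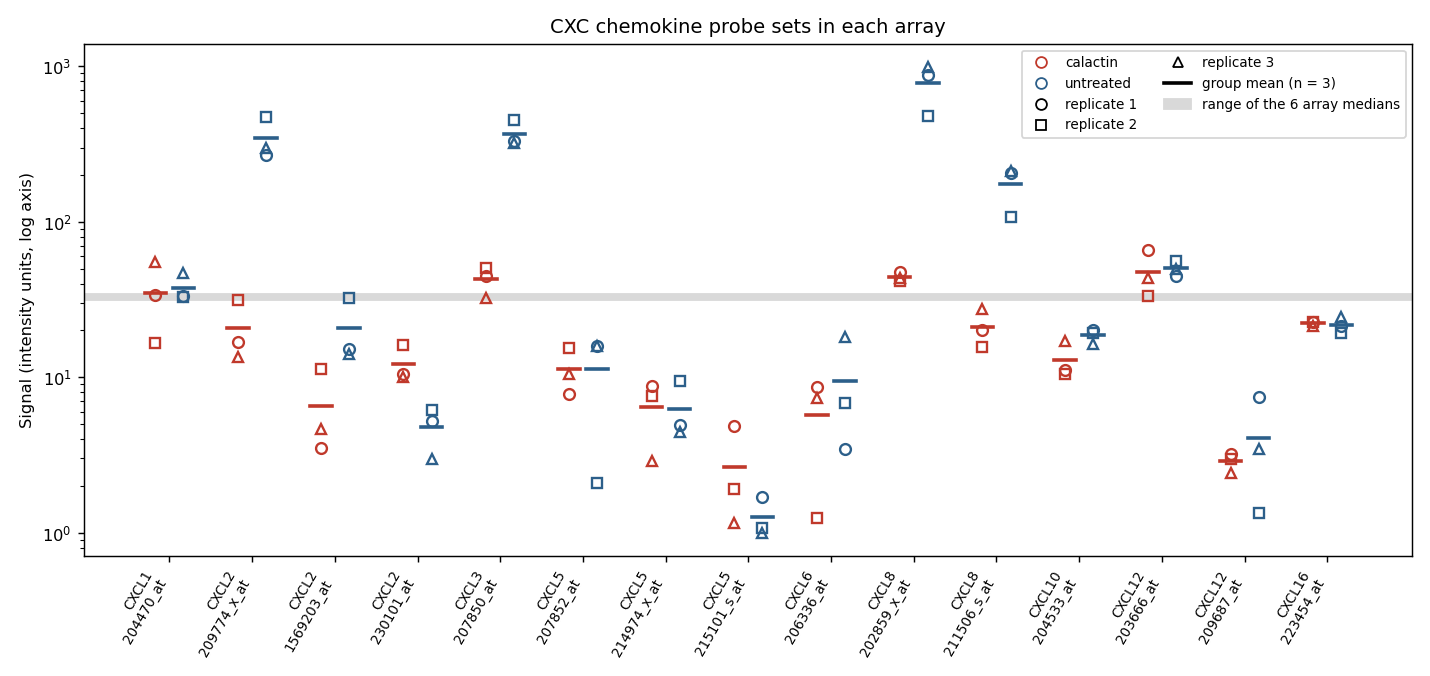
Signal of the 15 CXC chemokine probe sets in each array, on a log axis, with calactin at the left and untreated at the right of each pair. Symbols show replicate numbers, bars the group means and the grey band the 6 array medians. CXCL8, CXCL2 (209774_x_at) and CXCL3 stand far above the band in untreated arrays, between 106.7 and 986.2 units, and near it with calactin, between 13.6 and 50.8 units.

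CXCL8, also called interleukin 8 and the main neutrophil attractant in humans, was lower with calactin, by the most among the 9 genes except at a pseudocount of 1, where CXCL2 was at -4.05 and CXCL8 at -4.05 as well. Its brighter probe set, 202859_x_at, had 47.5, 41.8 and 43.4 units in calactin replicates 1, 2 and 3, against 876.6, 476.9 and 986.2 units in untreated replicates 1, 2 and 3. The groups lay far apart, and the calactin arrays differed little among themselves. The group means were 44.2 ± 2.93 with calactin and 779.9 ± 268.0 without it (SD, n = 3 each). All differences below, and the fold values with them, are on the log2(signal + 16) scale, where a positive value is higher with calactin. Differences that involve dim signals in either group are understated on it. For this probe set the difference was -3.66 ± 0.24 (SE), or 12.7-fold lower, while the linear ratio of untreated to calactin means was 17.6.

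The other CXCL8 probe set, 211506_s_at, ran the same way. It had 20.0, 15.7 and 27.5 units in the calactin arrays, against 207.2, 106.7 and 211.0 units in the untreated arrays. Its difference was -2.32 ± 0.26, or 5.00-fold lower. Both probe sets bear a suffix that marks probes shared with other sequences, so neither is specific by design. In a culture measured in bulk, fewer expressing cells and less RNA per cell cannot be told apart.

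CXCL2, a neutrophil attractant also called GRO-beta, was lower too in its brightest probe set, but its 3 probe sets did not move alike. The brightest, 209774_x_at, had 16.7, 31.5 and 13.6 units in the calactin arrays, against 270.4, 470.2 and 298.9 units in the untreated arrays. The groups did not overlap, and the difference was -3.30 ± 0.25, or 9.84-fold lower. This probe set too carries the suffix for shared probes, and CXCL1, CXCL2 and CXCL3 are close copies of each other.

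The other 2 CXCL2 probe sets, which carry no such suffix, were dim in every array. The first, 1569203_at, had 3.52, 11.3 and 4.66 units with calactin, against 15.2, 32.4 and 14.2 units without it, and differed by -0.68 ± 0.23. The second, 230101_at, went the other way, with 10.5, 16.02 and 10.0 units with calactin, against 5.26, 6.16 and 2.98 units without it. Its difference was 0.43 ± 0.15. Neither set of arrays overlapped with the other in these probe sets, although each signal lay below the median of its array.

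CXCL3, called GRO-gamma and again a CXCR2 ligand, had a single probe set without a suffix for shared probes, 207850_at. It had 45.0, 50.8 and 32.5 units in the calactin arrays, against 330.9, 454.3 and 319.7 units in the untreated arrays. The groups did not overlap, with means of 42.8 ± 9.33 and 368.3 ± 74.7 units in calactin and untreated arrays (SD, n = 3 each). The difference was -2.70 ± 0.18, or 6.52-fold lower.

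**Figure D2:**
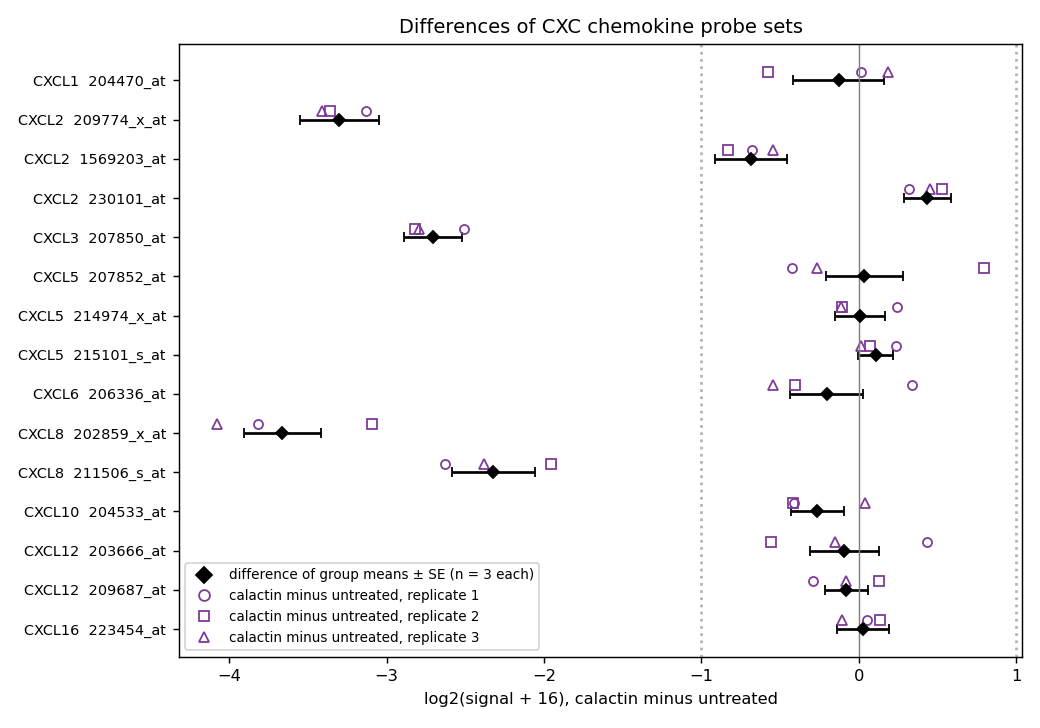
Difference of each CXC chemokine probe set, calactin minus untreated, in log2(signal + 16). Diamonds are differences of group means with their SE (n = 3 each), open symbols the differences within each replicate number, and dotted lines mark 2-fold. Probe sets 202859_x_at and 211506_s_at of CXCL8, 209774_x_at of CXCL2 and 207850_at of CXCL3 lie beyond 2-fold lower, between -3.66 and -2.32, and the others lie between -0.68 and 0.43.

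The remaining neutrophil attractants were dim in both groups. CXCL1, or GRO-alpha, had 33.6, 16.5 and 55.0 units with calactin, against 33.2, 32.6 and 46.5 units without it. The calactin arrays thus lay on both sides of the untreated ones, and the difference was -0.13 ± 0.29. Its window before the start is the closest relative of that of CXCL3, which was 6.52-fold lower on the log2(signal + 16) scale.

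CXCL5, a neutrophil attractant of epithelial cells and platelets, was near the floor in its 3 probe sets. The highest of these, 207852_at, had 7.84, 15.4 and 10.5 units with calactin, against 15.97, 2.09 and 15.9 units without it. The differences of the 3 probe sets ran from 0.01 to 0.11, and in each the groups overlapped. CXCL6 had 8.64, 1.25 and 7.35 units with calactin, against 3.45, 6.87 and 18.1 units without it. Its difference of -0.20 ± 0.23 was within its standard error.

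CXCL10, CXCL12 and CXCL16 were also dim. CXCL10, the interferon-induced ligand, had 11.2, 10.4 and 17.2 units with calactin, against 20.1, 19.3 and 16.3 units without it. Replicate 3 alone made the groups overlap, and the difference was -0.26 ± 0.17. The brighter CXCL12 probe set, 203666_at, had 66.0, 33.2 and 43.2 units with calactin, against 44.8, 56.3 and 49.8 units without it, a difference of -0.09 ± 0.22. The other CXCL12 probe set, 209687_at, did not exceed 7.47 units in any array. CXCL16 was the most even, with 22.5, 22.6 and 21.5 units with calactin, against 21.2, 19.1 and 24.4 units without it, and its difference was 0.03 ± 0.16. At these signals a difference would have been hard to see, so these values say little about CXCL1, CXCL5, CXCL6, CXCL10, CXCL12 and CXCL16.

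In all, 4 of the 15 probe sets were at least 2-fold lower with calactin, where 2.9% of all 54613 probe sets without array controls were. At least 2-fold higher were 0 of 15, where 0.586% of all were. The groups did not overlap, with calactin lower, in 5 of 15 probe sets, against 19% of all probe sets, and with calactin higher in 1 of 15, against 9.36% of all. Since the genes were chosen with this contrast known, nothing is read from these counts.

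The direction held within each replicate number. For CXCL8, probe set 202859_x_at, calactin minus untreated was -3.81, -3.09 and -4.08 in replicates 1, 2 and 3, and for CXCL2, probe set 209774_x_at, it was -3.13, -3.36 and -3.41. For CXCL3 it was -2.51, -2.82 and -2.79. Scaling to those spikes with the replicate number as a block moved the median of all probe sets to 0.55, and on that scale CXCL8, CXCL2 and CXCL3 were at -3.06, -2.70 and -2.10 for the same probe sets.

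The untreated arrays differed among themselves in opposite ways for these genes. Untreated replicate 2 had the lowest CXCL8 signal in both probe sets, 476.9 units against 876.6 and 986.2 in the brighter one. The same array had the highest CXCL2 (209774_x_at) and CXCL3 signals, 470.2 and 454.3 units. Shared probes of this CXCL2 probe set may read CXCL3 too, which was not tested. On the log2 scale, replicate 2 deviated from the untreated mean by -0.63 and -0.58 in the CXCL8 probe sets, and by 0.46 for CXCL2 and 0.31 for CXCL3. In calactin arrays, replicate 2 was again lowest for CXCL8, by -0.06 and -0.21, and highest for CXCL2 and CXCL3, by 0.41 and 0.20.

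Several other genes, picked after their values were seen, were low in untreated replicate 2 as well. EGR1, a transcription factor of the immediate early response, had 216.4, 333.1 and 222.2 units in calactin replicates 1, 2 and 3, against 8428, 2924 and 9684 units in untreated replicates 1, 2 and 3. FOS, a subunit of AP-1, had 20.6, 33.1 and 14.1 units with calactin, against 389.3, 107.5 and 335.6 units without it. EREG, which encodes the growth factor epiregulin and lies near CXCL2 on chromosome 4, had 81.1, 56.4 and 63.1 units with calactin, against 306.6, 48.9 and 341.2 units without it. Its difference of -1.25 ± 0.57 did not pass the limma test (adjusted p = 0.176). Of the 3264 genes that fell with calactin by that test, untreated replicate 2 was the lowest untreated array for 38% and the highest for 34.5%. With 3 arrays a group, the part of this array in each difference was not tested.

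**Figure D3:**
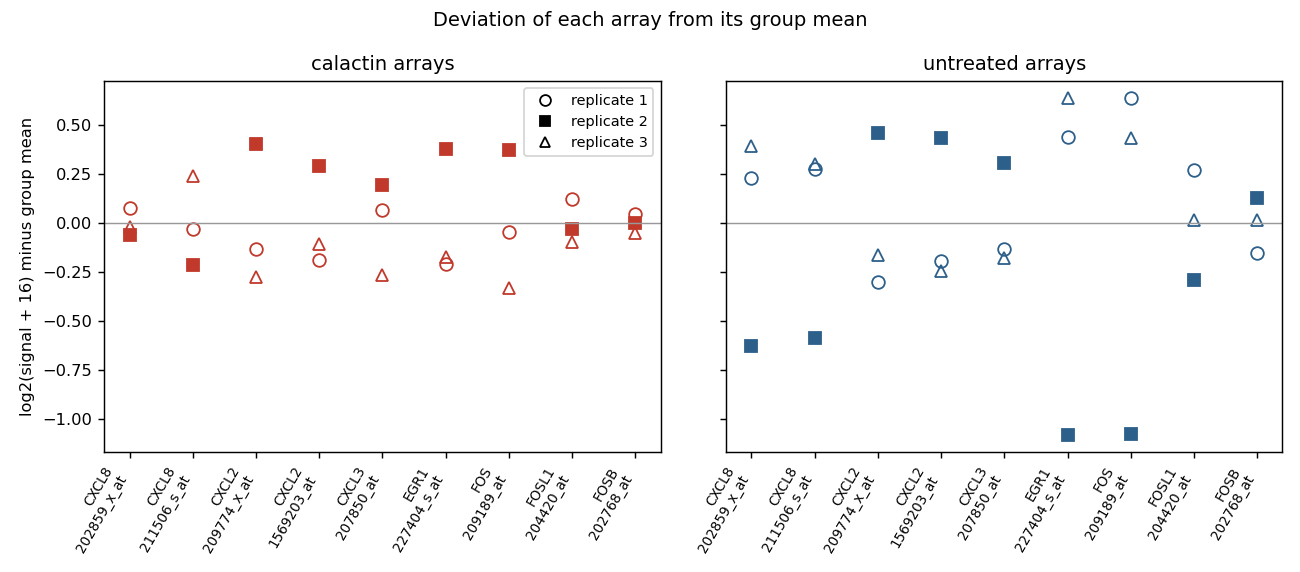
Deviation of each array from its group mean in log2(signal + 16), with calactin arrays in the left panel and untreated arrays in the right one. Filled squares are replicate 2. In untreated arrays replicate 2 is lowest for CXCL8, EGR1, FOS and FOSL1 and highest for CXCL2, CXCL3 and FOSB.

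The genes whose profile over the 6 arrays lay closest to each bright member were found by the root mean square distance of centred log2 values. This measure mostly follows the difference between the groups. For CXCL3 the closest were LINGO1 at 0.16, ZNF777 at 0.19 and C11orf96 at 0.22. For CXCL2 the same genes were closest, ZNF777 at 0.20, C11orf96 at 0.33 and LINGO1 at 0.34, and CXCL3 itself lay at 0.33 from CXCL2. Here CXCL2 was again taken by 209774_x_at, the probe set with shared probes. For CXCL8 the closest were LCP2, an adaptor of immune receptors, at 0.37, MYCL, a relative of MYC, at 0.42 and NRROS at 0.53. CXCL8 was farther from CXCL2 and CXCL3, at 0.62 and 0.69, than from these. LCP2 had 35.9, 19.2 and 43.4 units with calactin, against 416.1, 331.0 and 500.9 units without it, and so was also lowest in untreated replicate 2. LINGO1 had 24.8, 43.4 and 28.4 units with calactin, against 247.5, 340.8 and 282.6 units without it, with replicate 2 the highest in each group.

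Most of the CXC genes sit in 2 groups on chromosome 4, and those with large differences were not all side by side. From CXCL8 the order is CXCL6, PF4V1, CXCL1, PF4, PPBP, CXCL5, CXCL3 and CXCL2. CXCL3 and CXCL2, next to each other at the far end, were both lower, as was CXCL8 at the near end. The differences of the 6 genes between CXCL8 and CXCL3 ran from -0.31 for PPBP to 0.31 for PF4, and all 6 were dim. Beyond CXCL2, MTHFD2L, an enzyme of mitochondrial folate metabolism, was at -0.04 ± 0.10. Before CXCL8, RASSF6 was at 0.34 ± 0.25. In the more distant group, CXCL9, CXCL10 and CXCL11 were at -0.03, -0.26 and -0.23.

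**Figure D4:**
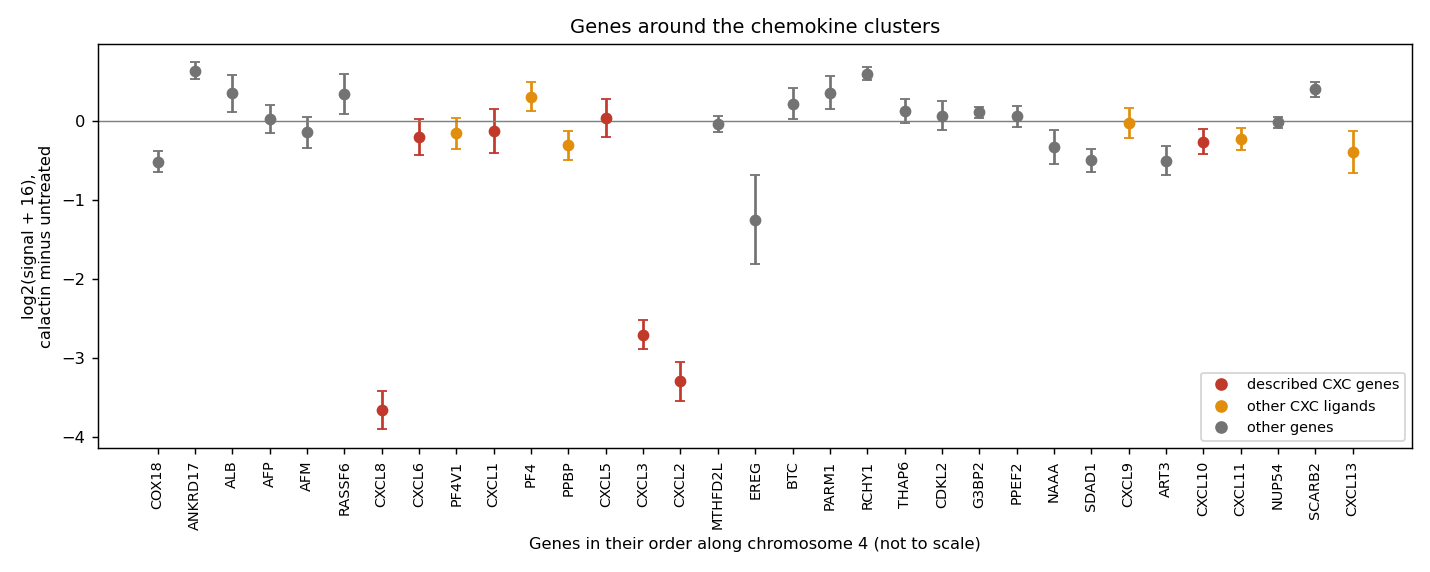
Difference in log2(signal + 16), calactin minus untreated, of genes in their order along chromosome 4, with bars for the SE (n = 3 each). Red marks the CXC genes described, orange other CXC ligands and grey other genes. CXCL8 at -3.66, CXCL3 at -2.70 and CXCL2 at -3.30 lie far below the 6 dim genes between CXCL8 and CXCL3, and EREG is at -1.25 with a wide bar. CXCL2 is shown by 209774_x_at, a probe set with shared probes.

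Genes other than the 9 could be tested, with limma over 19775 genes, 1 probe set a gene, and Benjamini-Hochberg adjusted p-values. This fit did not use the replicate numbers as pairs. At a threshold of 0.05, 21.4% of all genes were called. Of all genes 16.5% fell and 4.93% rose with calactin, and the median of all genes was -0.06. The split depended on the scaling, with 3264 lower and 975 higher genes on the deposited scale, 2401 and 1661 under quantile normalization, and 1028 and 12681 under poly-A spike scaling, which was run with the replicate block throughout. The 20 genes around the chromosome 4 groups that encode no chemokine gave 2 falls and 3 rises, with a median of 0.06. RCHY1, a ubiquitin ligase, rose by 0.60 ± 0.08 (limma, adjusted p = 9.9e-04), but 2 of its 4 probe sets were not called, and with probe sets of unshared sequence first it was at -0.0013. ANKRD17 rose by 0.63 ± 0.11 (limma, adjusted p = 0.00321), a call lost in replicates 1 and 2 alone. SCARB2, a lysosomal membrane protein, was at 0.40 ± 0.10 and COX18, of mitochondrial assembly, at -0.52 ± 0.14, and leaving out single arrays ended both calls. COX18 was positive, at 0.08, under poly-A spike scaling.

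Of 8 other CXC ligands, 0 passed the limma test, beside 21.4% of all genes. The median was -0.09, and 1 passed it before adjustment (unadjusted p, threshold 0.05). That was CXCL14, with 8.33, 19.5 and 32.0 units with calactin, against 6.80, 4.37 and 4.63 units without it (limma, adjusted p = 0.0689). It was named for being that one count, after its values were seen. Only 1 of the 8 lay above the median signal of all genes, so a difference would have been hard to see in most. PF4 and PPBP, platelet chemokines, had differences of 0.31 ± 0.19 and -0.31 ± 0.18. Of 22 CC, XC and CX3C ligands, 1 rose and 0 fell (median -0.03). Here too, only 1 of the 22 lay above the median signal of all genes. CCL4, which attracts monocytes and T cells, had 25.2, 20.5 and 25.0 units with calactin, against 2.00, 8.44 and 3.22 units without it. It rose by 0.96 ± 0.17 (limma, adjusted p = 0.00339) but stayed below the median signal of every array, and the call was lost in replicates 1 and 2 alone.

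Of 20 chemokine receptors, 0 passed limma, beside 21.4% of all genes. The median was -0.01, and 1 had an unadjusted limma p below 0.05. CXCR1, a receptor of CXCL8 and CXCL6, had 391.3, 433.0 and 390.2 units with calactin, against 380.9, 402.6 and 291.9 units without it. CXCR2, the receptor of all the neutrophil-attracting ligands, had 20.2, 25.5 and 8.63 units with calactin, against 12.2, 11.9 and 11.6 units without it. CXCR4, which binds CXCL12, had 40.4, 27.2 and 46.4 units with calactin, against 29.6, 36.6 and 45.6 units without it. Only 3 of the 20 receptors were above the median signal of all genes.

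Of 22 signalling genes downstream of such receptors, 6 fell and 1 rose (median 0.01), where 16.5% of all genes fell and 4.93% rose. Of these 22, 18 lay above the median signal of all genes. RGS2, which shortens G protein signals, had 71.8, 92.8 and 86.8 units with calactin, against 326.6, 378.0 and 436.5 units without it, and fell by 1.99 ± 0.15 (limma, adjusted p = 1.03e-04). RAC2, a GTPase of blood cell migration, fell by 1.31 ± 0.07 (limma, adjusted p = 4.4e-05), and PIK3CG, the PI3 kinase that G proteins switch on, fell by 1.59 ± 0.14 (limma, adjusted p = 1.44e-04). These calls held in each of 19 alternatives. ARRB1, an arrestin that ends receptor signals, rose by 0.61 ± 0.10 (limma, adjusted p = 0.00309), but its 7 probe sets disagreed, 3 higher and 2 lower past the threshold, and with their mean it was at 0.0067. Of 16 genes of chemokine processing and matrix binding, 1 fell and 0 rose (median -0.05). It was SDC3, a heparan sulphate carrier, at -0.71 ± 0.15 (limma, adjusted p = 0.0106), a call lost in replicates 1 and 2 alone and under quantile normalization and both spike scalings. ADAM10, which sheds CXCL16, was at -0.06 ± 0.07.

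Of factors known to act on CXC promoters, and kinases and inhibitors that control NF-kB, 13 were called, beside 21.4% of all genes. Of the 30 measured, 27 lay above the median signal of all genes, where 3 of 20 receptors did. Of 30, 11 fell and 2 rose (median -0.15), and 8 fell and 18 rose under poly-A spike scaling with the replicate block. EGR1 fell by 4.54 ± 0.40 (limma, adjusted p = 1.52e-04). FOSL1, an AP-1 subunit, fell by 2.41 ± 0.17 (limma, adjusted p = 7.8e-05). FOSB, another, fell by 1.86 ± 0.15 (limma, adjusted p = 1.22e-04) and had at most 5.56 units with calactin. REL, a subunit of NF-kB, went the other way and rose by 1.29 ± 0.09 (limma, adjusted p = 8.5e-05), with 4 of its 5 probe sets called higher. The calls of EGR1, FOSL1, FOSB and REL held in each alternative that measured them. Other AP-1 genes of the list are named after their values were seen. FOS and JUNB were called lower, at -2.78 ± 0.42 and -2.55 ± 0.31. JUN, JUND and FOSL2 were not called, at 0.23 ± 0.13, -0.14 ± 0.10 and 0.18 ± 0.16. RELA, the NF-kB subunit with the best known role at the CXCL8 promoter, was at -0.07 ± 0.08 (limma, adjusted p = 0.654). Other NF-kB genes of the list were called lower, and are named after their values were seen. NFKBIE encodes an inhibitor of NF-kB and IKBKB a kinase that activates it. They were at -1.51 ± 0.15 and -1.16 ± 0.13 (limma, adjusted p = 2.68e-04 and 4.21e-04). NFKB2 and NFKBIZ were at -0.79 ± 0.17 and -0.82 ± 0.21 (limma, adjusted p = 0.00969 and 0.0244). Lower calls were made for 1 of 3 IKBKB, 2 of 3 NFKB2 and 1 of 2 NFKBIZ probe sets.

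Of 16 genes that bind or degrade AU-rich messages, or act on such factors, 5 rose and 0 fell (median -0.06). Of all genes, 4.93% rose and 16.5% fell, but those include dim genes, while all 16 lay above the median signal. DCP1A, of the decapping complex, had 629.9, 652.8 and 680.4 units with calactin, against 317.6, 378.7 and 335.4 units without it. It rose by 0.90 ± 0.10 (limma, adjusted p = 4.43e-04), a call kept in each of 19 alternatives. CNOT1 and CNOT7, of the deadenylase complex, rose by 0.34 ± 0.07 and 0.35 ± 0.08, and RC3H1, which binds stem loops in cytokine messages, rose by 0.48 ± 0.11. Their limma adjusted p-values were 0.0079, 0.0123 and 0.0106. The call of CNOT7 was lost without calactin replicate 2 or untreated replicate 3, and that of RC3H1 without calactin replicate 3. With the mean of probe sets CNOT7 was at -0.011 and RC3H1 at 0.19, neither called, and without a trend in eBayes the calls of CNOT1 and CNOT7 were lost. Hybridisation spike scaling ended the calls of all 3. The list had 3 calls without calactin replicate 2 or 3 and 8 without untreated replicate 2.

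Of 27 inflammatory genes that are often induced together with CXCL8, 3 fell, 2 rose and 22 were not called (median -0.06), beside 21.4% called of all genes. IL6, a cytokine that shares NF-kB control with CXCL8, had 135.3, 154.5 and 120.4 units with calactin, against 46.1, 48.8 and 41.2 units without it. It thus rose, by 1.31 ± 0.15 (limma, adjusted p = 5.08e-04), where CXCL8 was lower. TNFAIP3, an inhibitor of NF-kB signalling, rose by 0.92 ± 0.12 (limma, adjusted p = 9.8e-04). IER3, an early response gene, fell by 1.49 ± 0.14 (limma, adjusted p = 2.05e-04). PLAUR, the urokinase receptor, fell by 0.85 ± 0.12 (limma, adjusted p = 0.00118), a call lost under poly-A spike scaling and with probe sets of unshared sequence first. The calls of IL6, TNFAIP3 and IER3 held in each of 19 alternatives. TNF and IL1B, which induce CXC chemokines, were at -0.05 ± 0.18 and -0.27 ± 0.18 and not called.

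Of 30 interferon response genes, 2 fell and 0 rose (median 0.03), beside 21.4% called of all genes. Only 11 of the 30 lay above the median signal of all genes. With the replicate number as a block 4 fell. IFNGR2, a chain of the interferon gamma receptor, fell by 0.63 ± 0.08 (limma, adjusted p = 9.89e-04), and ISG15, a ubiquitin-like protein, was at -0.32 ± 0.09 (limma, adjusted p = 0.0333). The ISG15 call was lost when any single array was left out, and its sign turned to 0.28 under poly-A spike scaling. The IFNGR2 call was lost under both spike scalings.

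**Figure D5:**
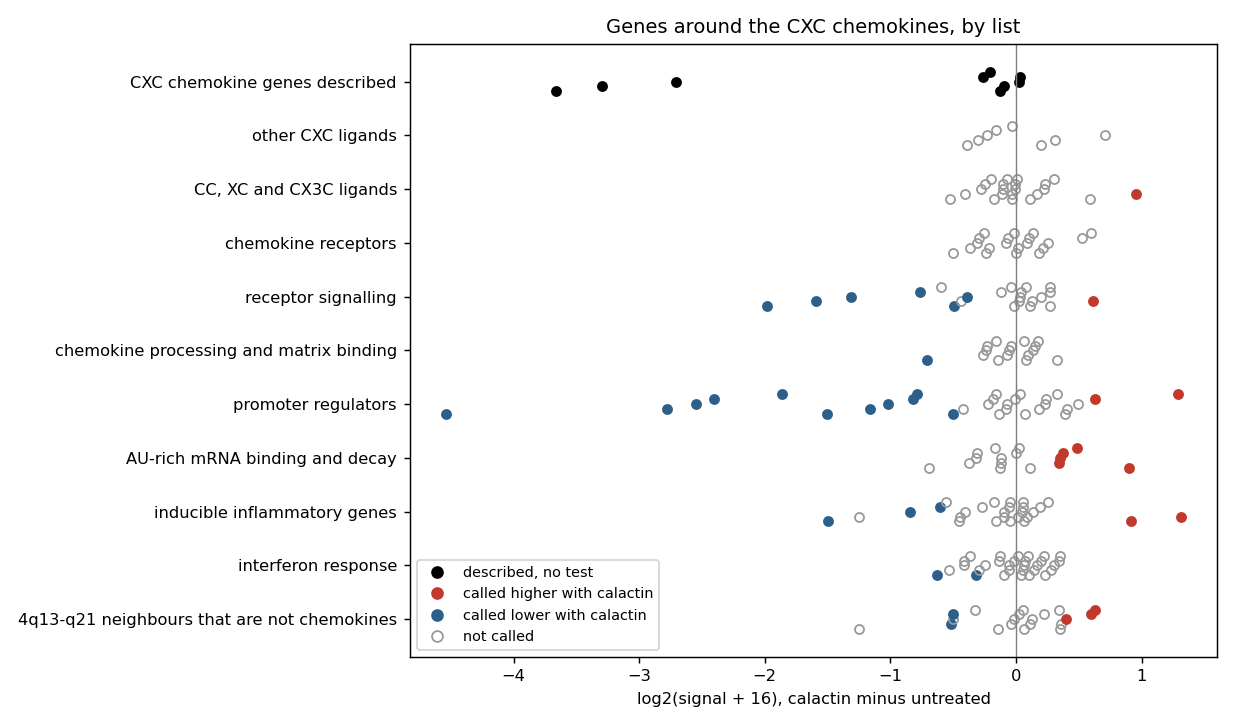
Difference in log2(signal + 16), calactin minus untreated, of each measured gene of 10 lists, with the 9 CXC genes in black at the top. Filled red and blue points were called higher and lower by limma, and open points were not called. The receptors and other chemokine ligands lie near 0, between -0.52 and 0.96, and the promoter regulators spread from -4.54 to 1.29.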

How the data were processed

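Gene expression was measured on 1-colour arrays, 3 with calactin and 3 untreated. The authors deposited an intensity for each probe set of each array, on a linear scale. How probes were summarised, corrected for background and scaled is not given in the sources used here. Of 54675 probe sets, 62 were array controls and 41091 carried 1 symbol, 1801 several and 11721 none in the platform annotation. The gene identifiers changed 0 symbols.

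Values were turned into log2(intensity + 16) without further normalization. limma 3.58.1 (lmFit, eBayes with a trend, two-sided) in R 4.3.3 was fitted to all 54613 other probe sets for the CXC genes, and for the lists to 19775 genes, each by its probe set with the highest mean log2 value. It was tested on simulated data. The number of arrays limits the precision. Genes named by rule were the CXC genes, up to 4 called genes with the smallest p of each list, and the closest profiles. The latter were the 3 closest to each CXC gene with a group mean above the median signal. Further genes were named outside this rule, among them RELA, TNF, IL1B, ADAM10, CXCR1, CXCR2 and CXCR4. So were PF4, PPBP, MTHFD2L, RASSF6, the lower NF-kB genes and further AP-1 genes. The CXC genes and lists were chosen with earlier results of these data known, and the motifs after the windows were read. The lists of receptors, ligands, signalling, processing, regulators, decay, inflammation, interferon response and neighbours are described in the text.

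Replicate numbers came from the titles. Deviations from group means over 9887 genes correlated at 0.54, 0.41 and 0.34 within numbers 1, 2 and 3. The numbers were taken as pairs only in the differences within replicate numbers and in the alternatives with a replicate block. The main fits, and so the SE and adjusted p-values in the text, did not use the pairs. Alternatives were quantile normalization, median centring, hybridisation spike scaling, poly-A spike scaling with the replicate block, pseudocounts of 1 and 64, a filter on dim features, no trend, the replicate block, each array left out, other choices of probe set, and, added after seeing the data, replicates 1 and 2 alone. Other kinds of cell were checked by markers. Of lymphocyte markers 1 of 6 was above the median signal, of monocyte markers 2 of 6, of fibroblast and endothelial markers 4 of 8 and of epithelial markers 2 of 5. The alignments used Biopython 1.88 and the plots matplotlib 3.10.9.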

Additional observations from a re-analysis of the deposited data

How the results depend on the processing

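The 4 probe sets of CXCL8, CXCL2 and CXCL3 that were at least 2-fold lower with calactin remained so in each of 16 alternatives. CXCL8 (202859_x_at) ran from -4.05 to -2.91, CXCL2 (209774_x_at) from -4.05 to -2.25 and CXCL3 from -3.08 to -2.01, the ends being pseudocounts of 1 and 64. The dim CXCL2 probe set 230101_at ran from 0.15 to 1.20. CXCL1, CXCL6, CXCL10 and CXCL12, slightly lower on the deposited scale, were at 0.47, 0.40, 0.34 and 0.51 under poly-A spike scaling with the replicate block, where the median of all probe sets was 0.55. Signals of the 6 dim genes limit what can be seen of them.

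Poly-A spike scaling was run together with the replicate block, so its counts reflect both. Against 4239 calls on the deposited scale, refits called 2089 genes under hybridisation spike scaling, 13709 under poly-A spike scaling with the block, 1735 in replicates 1 and 2 alone and 3133 to 4045 without single arrays. The share of lower calls was 77.0%, and 59.1% under quantile normalization, 69.3% under hybridisation and 7.5% under poly-A spike scaling with the block. The lists together had 39 calls, 25 under hybridisation and 154 under poly-A spike scaling with the block, 20 in replicates 1 and 2 alone and 32 to 43 without single arrays. Under hybridisation spike scaling the calls numbered 1 for other CXC ligands, 4 for receptor signalling, 0 for processing, 1 for AU-rich messages, 0 for interferon response and 3 for neighbours. Under poly-A spike scaling with the block they numbered 4 for other CXC ligands, 13 for CC, XC and CX3C ligands, 13 for receptors, 17 for signalling, 11 for processing, 26 for regulators, 14 for AU-rich messages, 20 for inflammation, 22 for interferon response and 15 for neighbours. Replicates 1 and 2 alone gave 0 CC, XC and CX3C ligands, 3 for signalling, 0 for processing, 8 for regulators, 2 for AU-rich messages, 1 for interferon response and 1 neighbour. Quantile normalization gave 0 for processing and 3 neighbours, and median centring 1 other CXC ligand, 2 CC, XC and CX3C ligands and 1 for interferon response. Features above the median gave 0 CC, XC and CX3C ligands and 4 for interferon response, and eBayes without a trend gave 2 for AU-rich messages and 3 neighbours. The mean of probe sets gave 2 for AU-rich messages and 2 neighbours, and probe sets of unshared sequence first gave 3 for inflammation. With the replicate block, which takes the replicate numbers as pairs, 5394 of all genes and 51 of the list genes were called. Interferon response then had 4 calls, and no other list's count moved by over 1.5 times, with regulators at 18. Leaving out single arrays gave 0 to 1 other CXC ligands, 1 to 2 CC, XC and CX3C ligands, 0 to 1 receptors, 6 to 7 for signalling, 1 for processing, 11 to 13 for regulators, 3 to 8 for AU-rich messages, 5 to 7 for inflammation, 1 for interferon response and 3 to 5 neighbours. Signs turned for ISG15 (0.28) and COX18 (0.0842) under poly-A spike scaling with the block, for CNOT7 (-0.011) with the mean of probe sets and for RCHY1 (-0.0013) with unshared probe sets first. The cause of these shifts was not tested, except that fewer arrays or features were fitted in some. Over the named genes outside the CXC set, 50 of 454 refits lost the call with the sign kept, and 4 turned sign.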
